A study of Mus musculus with 28 samples.

Results

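The 9 core interferon-stimulated genes Mx1, Mx2, Ifit1, Ifit2, Ifit3, Isg15, Rsad2, Stat2 and Irf7 were followed through the chromatin of tumour cells with and without Setdb1 editing. They were taken as a named list, with no threshold on a measured value but with earlier results of these data known, and all 9 were found among the 49550 gene regions of chromosomes 1 to 19 and X. A gene's region ran from its start to its end in mm10 plus 2 kb on both sides. The question was whether loss of Setdb1 leaves the histone marks of an interferon response on these genes.

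Cells detect foreign nucleic acid or interferon at the surface and pass the signal to transcription factors, among them STAT2 and IRF7, which bind short elements in the promoters of interferon-stimulated genes. The products block viral replication in several ways, from trapping viral particles to sequestering viral RNA. Setdb1 encodes a methyltransferase that places H3K9me3, a mark of silenced chromatin that covers many transposable elements, whereas H3K9Ac marks active promoters and enhancers.

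Chromatin was digested with micrococcal nuclease, immunoprecipitated for either mark and sequenced. B16OVA is a mouse melanoma line (B16 below) and MC38 a mouse colon adenocarcinoma line. Control cells of each line were transduced with the empty pCRISPR-v2-puro construct and Setdb1 KO cells with the same construct carrying a Setdb1 guide, and all were grown in puromycin. With 3 numbered replicates for each line, genotype and mark there were 24 libraries. The labels name neither separate cultures nor clones, so p-values here cover only the spread between these libraries, and that spread may be technical.

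Each library's file lists islands, stretches of 200 bp bins enriched for reads, with the reads in each. Island reads summed to between 15200766 and 45419584 per library for H3K9me3 and between 28453371 and 78087809 for H3K9Ac. A value of 0 therefore means that no island was called, not that no read was there, and a group without islands in its 3 libraries gets no fold change. Levels are island reads in the gene region per 1000000 scaled island reads of the library (RPM). All 8 melanocyte markers had H3K9Ac islands in every B16 library, summing to 1010.0 to 1680.0 RPM. In MC38 they summed to 190.0 to 328.0 RPM, with islands in all 3 libraries for 4 of 8 in control and 3 of 8 in KO, and Tyr, Dct and Tyrp1 had none in any library. Gut epithelium markers did not separate the lines, with islands in all 3 libraries of a group for 7 or 8 of 9. Leukocyte markers had islands in all 3 libraries for 3 of 8 in both B16 groups (summed at 30.5 to 55.9 RPM), 5 of 8 in MC38 control and 6 of 8 in MC38 KO (60.2 to 83.4 RPM), and Ncr1 was at 0 throughout. Fibroblast markers had them for 5 of 8 in every group, summed at 153.0 to 204.0 RPM, with Dcn and Lum at 0 in both lines. The part of other cell types in the results was not tested. H3K9Ac over Setdb1 itself, 71.4 to 81.4 RPM in B16 control against 69.2 to 87.0 in B16 KO and 87.9 to 103.0 in MC38 control against 108.0 to 117.0 in MC38 KO, does not check the edit, since islands do not show the DNA sequence.

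Promoter sequences were searched for the element through which the interferon-activated factors act. The RefSeq table (GRCm38.p6, the assembly of mm10) held promoter windows of 300 bases for 7 of the 9 genes, and Mx1 and Mx2 had no entry. The interferon-stimulated response element was searched as GAAANNGAAA, or TTTCNNTTTC for the other strand, and was found in 1131 of 32851 RefSeq promoter windows (3.44%). It occurred 2 times in Ifit1, 2 times in Ifit3, 3 times with overlaps in Isg15, and 1 time each in Rsad2 and Stat2, whereas the windows of Ifit2 and Irf7 held no such letters. The STAT element TTCNNNGAA, present in 8.3% of windows, occurred 1 time, in Ifit2. The 160 bases just before the start site are printed 5′ to 3′ on the gene's strand for 4 antiviral effector genes that hold the response element, with the matches in capitals.
Ifit1 promoter, chr19:34640729-34640888, plus strand: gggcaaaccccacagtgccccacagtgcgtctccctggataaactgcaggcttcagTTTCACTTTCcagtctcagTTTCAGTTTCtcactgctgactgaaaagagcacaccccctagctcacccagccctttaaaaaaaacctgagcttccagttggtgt
Ifit3 promoter, chr19:34583369-34583528, plus strand: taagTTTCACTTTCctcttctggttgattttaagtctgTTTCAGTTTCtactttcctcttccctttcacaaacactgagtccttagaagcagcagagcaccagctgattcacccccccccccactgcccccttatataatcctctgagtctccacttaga
Isg15 promoter, chr4:156200819-156200978, minus strand: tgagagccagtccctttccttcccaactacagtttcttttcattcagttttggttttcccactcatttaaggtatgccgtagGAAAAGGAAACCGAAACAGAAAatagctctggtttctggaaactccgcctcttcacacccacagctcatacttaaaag
Rsad2 promoter, chr12:26456453-26456612, minus strand: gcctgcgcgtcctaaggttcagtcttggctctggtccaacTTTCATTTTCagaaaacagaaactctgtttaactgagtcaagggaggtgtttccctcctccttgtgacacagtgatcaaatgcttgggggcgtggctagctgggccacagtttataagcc
In Ifit1 the matches lay 104 to 95 and 85 to 76 bases before the start, and in Isg15 the overlapping matches ran from 78 to 57 bases before it. The Rsad2 match lay 120 to 111 bases upstream, and those of Ifit3 lay 156 to 147 and 122 to 113 bases upstream.

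Control cells already carried H3K9Ac islands on these genes, as on most coding genes. All 3 controls had one in the region for 9 of 9 members in B16, beside 70.3% of protein-coding regions, and for 6 of 9 in MC38, beside 69.6%. The start site lay under an H3K9Ac island in 12 of 12 libraries for Ifit1, Ifit2, Isg15, Stat2 and Irf7. For Ifit3 this held in 10 of 12, the exceptions being MC38 control 2 and MC38 KO 1, and for Rsad2 in 10 of 12, the exceptions being replicate 3 of both MC38 genotypes. Scaled per kb of region, the control level in B16 lay between the 47.8th percentile of 21627 protein-coding regions for Ifit1 (0.752 RPM per kb) and the 83.8th for Ifit2 (2.35). In MC38 it lay between the 27.8th percentile for Mx1 (0.0885 RPM per kb) and the 76.9th for Irf7 (2.03).

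Setdb1 KO left no detected H3K9Ac change on any of the 9 genes in either line. In B16, 0 of 9 passed the call (edgeR's quasi-likelihood test, adjusted p under 0.05 by Benjamini-Hochberg over 33359 regions), against 28 of all regions, 0.0839% of those tested. In MC38, 0 of 9 passed, against 42 regions or 0.126%. By DESeq2, which called many more regions, 0 of 9 passed in each line, and 1376 regions in B16 and 1043 in MC38 had an unadjusted edgeR p under 0.05, none of them a member. KO and control libraries overlapped for 9 of 9 genes in both lines, while 8.08% of regions in B16 and 3.79% in MC38 did not overlap. Every adjusted edgeR p of a member was 1.0. With the replicate number as a block, the calls over all regions were 17 in B16 and 25 in MC38, with 0 of 9 members again.

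The precision of that result differed between genes. Mx2, Ifit1, Ifit2, Isg15, Stat2 and Irf7 had islands in all 12 H3K9Ac libraries, and the upper 95% limits of their KO over control ratios ran from 1.08-fold to 1.92-fold over both lines. For Mx1, Ifit3 and Rsad2, where some libraries had no island, the upper limits ran from 7.55-fold to 20.9-fold, so in MC38 a several-fold gain was not detectable there. In B16 all 6 libraries had islands on those 3 genes and no KO library exceeded the highest control, while the fitted limits rest on a spread estimated over both lines. In B16 the fitted log2 change was below 0 for 7 genes and above 0 for 2, with a median of -0.24, beside -0.02 over the 23960 regions with reads in all 6 libraries. By number, 4 genes (Ifit2, Ifit3, Isg15 and Rsad2) were lower in KO in 3 of 3 B16 pairs and 1 (Stat2) was higher. In MC38 the change was above 0 for 5 genes and below 0 for 4, with a median of 0.02, and 0 genes were lower and 1 (Mx1) higher in 3 of 3 pairs. The share of all regions lower or higher in 3 of 3 pairs was not counted, so these pair counts have no background. The MC38 members with reads in all 6 libraries, 6 of the 9, had a median of -0.15, beside 0.0 over 22831 such regions.

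**Figure D1:**
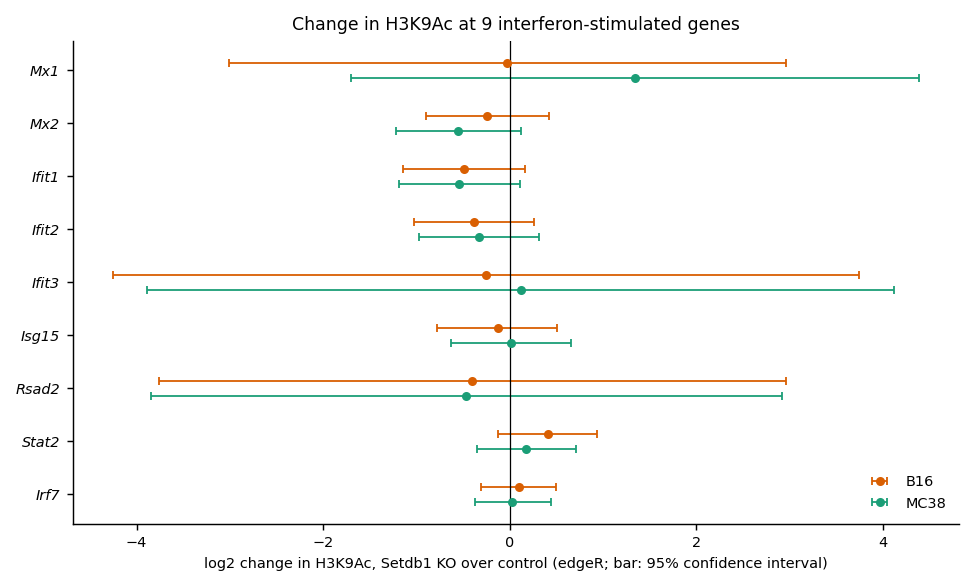
Fitted log2 change in H3K9Ac between Setdb1 KO and control for each gene (vertical axis) in B16 (orange) and MC38 (green), with approximate 95% confidence intervals derived from the edgeR test. Every interval crosses 0, and those of Mx1, Ifit3 and Rsad2 are the widest.

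Isg15 and Rsad2 are direct effectors. Isg15 (chromosome 4, 156199424 to 156200818) encodes a ubiquitin-like protein that is joined to other proteins during infection. Its H3K9Ac was 12.2, 9.92 and 7.0 RPM in B16 control replicates 1 to 3 and 10.8, 9.27 and 6.47 in the KO replicates of the same numbers. Each KO library lay just under its same-numbered control (log2 -0.13, unpaired 95% interval -0.78 to 0.51, edgeR adjusted p = 1.0). The spread between replicates was larger than that step, but it does not measure how much the step varied between pairs. With the replicate block the log2 change was also -0.13 and Isg15 was not called. In MC38 the controls gave 11.3, 10.9 and 8.19 RPM and the KO libraries 10.7, 9.72 and 10.3, with log2 0.02 (interval -0.63 to 0.66). Gm46878, a long noncoding RNA gene, and Agrn reach into the Isg15 region, by 2.1 and 0.1 kb of gene, so their reads cannot be told apart from those of Isg15. The flanks of Perm1 and AW011738 overlap it too. Single islands reached far past the 5.4 kb region, up to 37.4 kb long in MC38 KO replicate 2. Reads were apportioned evenly by island length, so such values partly reflect neighbouring sequence.

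Rsad2 (chromosome 12, 26442743 to 26456452) encodes viperin, an antiviral radical-SAM enzyme. B16 control libraries held 29.2, 26.3 and 21.3 RPM and KO libraries 13, 25.1 and 20. KO replicate 1 was the lowest, with islands on 5.0 kb of the region against 10.6 to 12.6 kb in the B16 controls, and each KO library lay under its same-numbered control, while the groups overlapped (log2 -0.40, SE 1.5). MC38 was low in both genotypes, with 4.67, 6.52 and 0 RPM in control and 3.51, 4.58 and 0 in KO. There the signal was a lone island over the start site, 2.4 and 3.2 kb of the region in control and 2.0 and 2.2 kb in KO, where B16 control libraries also had an island further down the gene.

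Among the IFIT genes on chromosome 19, a family that includes binders of viral RNA lacking the host cap structure, Ifit2 (34550550 to 34576534) had the most H3K9Ac. It held 67.0, 91.7 and 52.3 RPM in B16 control and 43.5, 77.0 and 41.4 in KO, lower in 3 of 3 same-numbered pairs, while the groups overlapped (log2 -0.38, interval -1.03 to 0.26). In MC38 the values were 46.5, 57.5 and 35.4 RPM in control and 33.7, 34.2 and 43.4 in KO. There too the ranges overlapped.

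For Ifit1 (34640889 to 34650009), control against KO values of H3K9Ac were 12.4, 8.75 and 8.5 against 7.0, 5.41 and 8.71 RPM in B16, and 14.1, 14.8 and 10.8 against 7.07, 9.0 and 11.1 RPM in MC38. Replicate 3 of both KO groups lay within the range of the controls, so the groups overlapped in each line. By number KO was lower in 4 of 6 pairs, against 5 of 6 for Ifit2, Isg15 and Rsad2. For the mean of both KO effects, a test added after the data were seen, Ifit1 had log2 -0.52 (interval -0.98 to -0.06) with the smallest unadjusted p of the 9, 0.0318, and an edgeR adjusted p of 0.948, which ranged from 0.15 to 1.0 over the alternatives. That test called 60 regions (0.18%) and 0 of 9 members.

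Ifit3 (34583119 to 34588982) held 19.4, 19.4 and 16.8 RPM in B16 control and 14.4, 17.4 and 15.0 in KO. KO values were lower in 3 of 3 pairs, and KO replicate 2 lay inside the control range. In MC38, control 2 and KO 1 had no island, and the others held 16.4 and 14.2 RPM in control and 11.9 and 21.2 in KO. The islands that were called there covered 7.0 to 9.8 kb of the 9.9 kb region, and the groups overlapped.

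The GTPases Mx1 (chromosome 16, 97447035 to 97462906) and Mx2 (97536081 to 97560901) trap viral components in the nucleus or cytoplasm, and RefSeq annotates both loci in this reference as transcribed pseudogenes. Mx1 held 14.8, 12.8 and 22.5 RPM of H3K9Ac in B16 control and 13.7, 21.2 and 14.3 in KO, which overlapped (log2 -0.03, SE 1.33). In MC38 it was low, with 0.557, 4.72 and 0 RPM in control and 3.35, 9.33 and 0.784 in KO. The KO library was higher in 3 of 3 pairs there. In pair 3 this was 22 reads against 0, from the edge of an island that ended outside the gene, at -1.4 kb. The 26 reads of control 1 were also such an edge (-1.6 kb). The estimate was wide (log2 1.34, interval -1.70 to 4.39, edgeR adjusted p = 1.0). It was 0.23 without KO replicate 2 and 3.97 without control replicate 2. Mx2 held 53.2, 23.2 and 36.9 RPM in B16 control and 28.9, 34.8 and 32.3 in KO. The MC38 values of Mx2 were 24.5, 24.7 and 15.3 RPM in control and 17, 11.4 and 15.6 in KO, and they overlapped through replicate 3 (log2 -0.55, interval -1.22 to 0.12). With stricter islands this was -0.05 and in the 5′ window, which for Mx2 spans 2 kb either way from its more acetylated end, -0.07.

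Stat2 and Irf7 encode factors of the response itself. Stat2 (chromosome 10, 128270498 to 128292853) held 22.8, 15.4 and 27.2 RPM in B16 control and 33.5, 23.6 and 29.7 in KO, higher in 3 of 3 pairs with overlapping groups (log2 0.41, interval -0.12 to 0.94). In MC38 the values were 44.2, 37.3 and 48.4 RPM in control and 63.0, 41.4 and 43.3 in KO, where KO 1 stood above the rest. Irf7 (chromosome 7, 141263183 to 141266499) varied least. All 12 libraries lay between 12.5 and 18.5 RPM, with a KO log2 change of 0.10 (interval -0.31 to 0.50) in B16 and 0.03 (-0.37 to 0.44) in MC38. Apof overlaps the Stat2 region by 2.6 kb of gene and Phrf1 the Irf7 region by 1.6 kb, and the flanks of Il23a and Cdhr5 reach them. Single islands over the 7.3 kb Irf7 region were up to 51.8 kb long (B16 KO replicate 1). Their reads were apportioned evenly by length, so the Irf7 values and their small spread are partly those of neighbouring sequence.

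**Figure D2:**
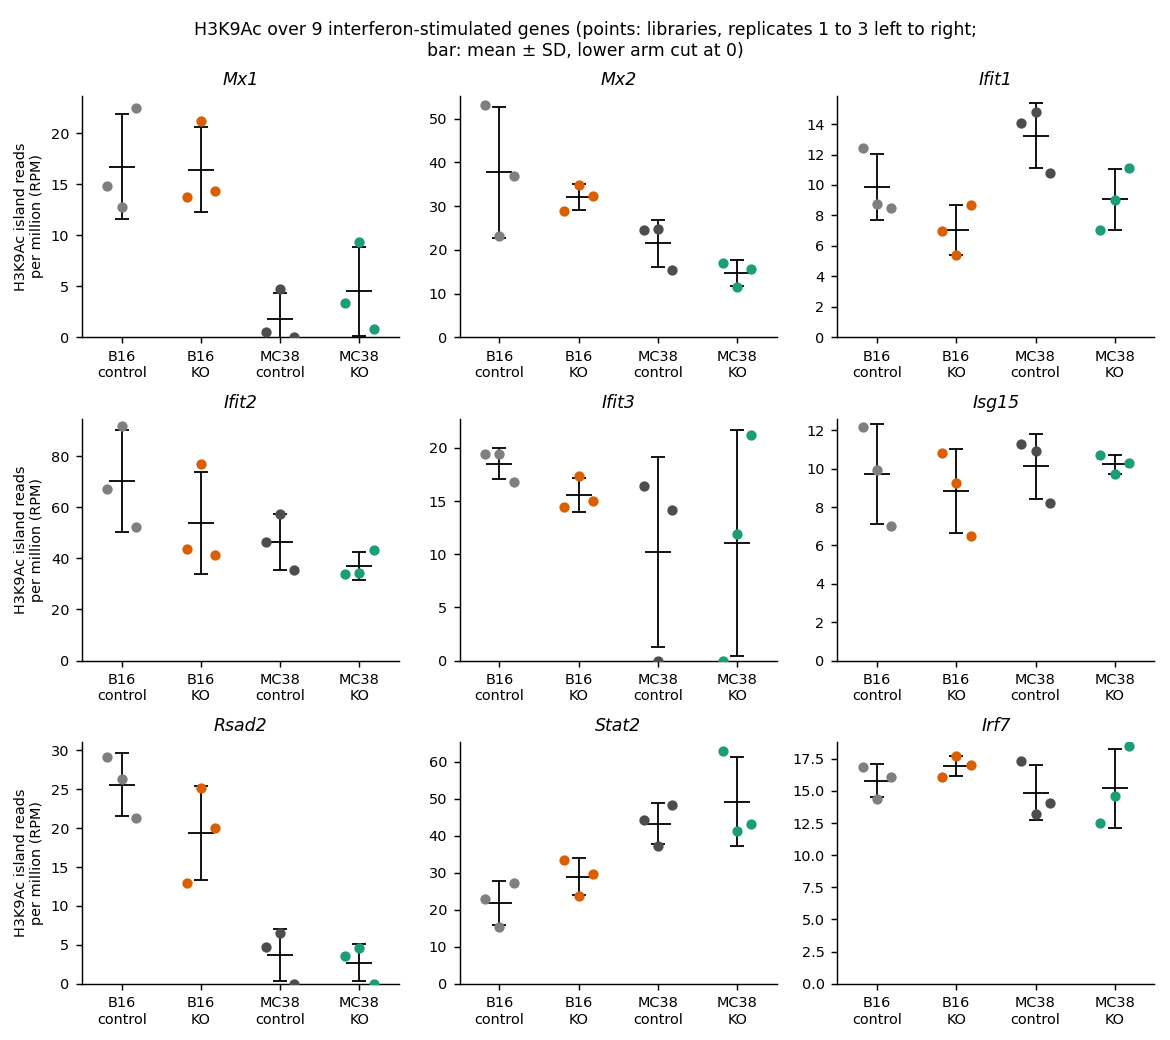
H3K9Ac island reads in RPM (vertical axes, from 0) in each library of the 4 groups for each gene, with the mean and SD. KO and control points overlap in both lines for all 9 genes, while Mx1 and Rsad2 are low in MC38 and Stat2 is high there.

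Control cells of the lines were also compared. Between MC38 and B16 control cells 1 of 9 members passed, against 19.4% of all regions, and 4 of 9 had groups that did not overlap, against 38.8%. The passing member was Stat2, at 43.3 ± 5.60 RPM in MC38 and 21.8 ± 5.94 in B16 (SD, n = 3 each), a log2 difference of 0.99 (interval 0.46 to 1.53, edgeR adjusted p = 0.0161). Without MC38 control replicate 3 the adjusted p was 0.0503. In the 5′ window of 2 kb on both sides of the start the difference was 0.10 (adjusted p = 0.929). Along the gene, the B16 controls had separate islands of 1.0 to 4.6 kb, and each MC38 control had an island of 20.6 to 27 kb that ran past the gene's end. In MC38 controls 2 and 3 that island reached 41.3 and 41.7 kb from the gene start, outside the region. Island reads were apportioned evenly by length, so reads of Stat2 cannot be told apart there from those of sequence further on.

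Mx1, Ifit3 and Rsad2 were higher in every B16 control than in every MC38 control without passing the test. Their means were 16.7 ± 5.14 against 1.76 ± 2.58 RPM for Mx1 (adjusted p = 0.16), 18.5 ± 1.49 against 10.2 ± 8.89 for Ifit3 (adjusted p = 0.818) and 25.6 ± 4.02 against 3.73 ± 3.36 for Rsad2 (adjusted p = 0.268), all by edgeR with n = 3 each. By DESeq2, which called 10767 of the 33359 regions between the controls, Mx1 (adjusted p = 0.0257) and Mx2 (0.0184) passed as well. Mx2 gave 37.8 ± 15.0 RPM in B16 and 21.5 ± 5.39 in MC38, and it passed in edgeR with stricter islands (0.0144). In the 5′ window, where edgeR called 3592 regions, Mx2 (0.0356), Ifit2 (0.00792) and Mx1 (0.00769) passed and Stat2 did not. The window reads of Mx1 were 666, 566 and 499 in the B16 controls and 0 in each MC38 control. The table used gives no strand for Mx1 and Mx2, so their window was placed at the gene end with more H3K9Ac over these same libraries. The window result of these genes is therefore not independent of the levels compared. The region reads of Mx1 in MC38 controls 1 and 2, 26 and 324, lay at the other end.

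**Figure D3:**
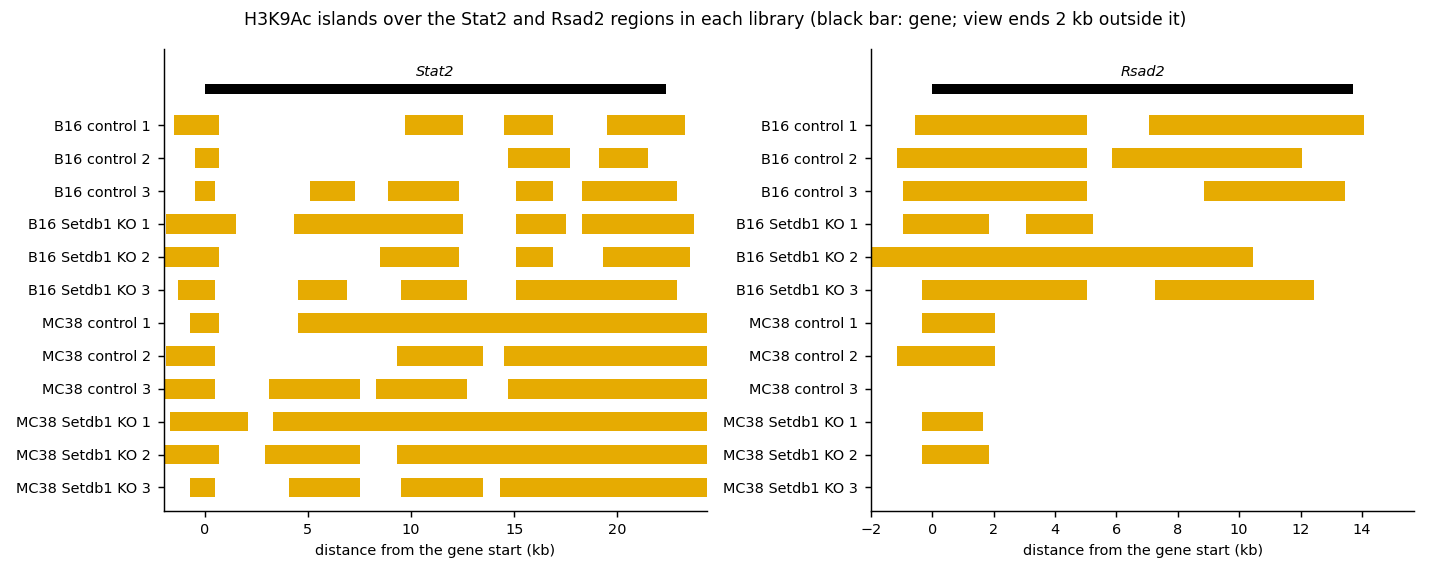
H3K9Ac islands (yellow bars) along Stat2 and Rsad2 in each of 12 libraries (rows), by distance from the gene start in kb. Long islands cover the 3′ part of Stat2 in the MC38 libraries, and Rsad2 has only an island at its start, or none, in MC38.

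The KO effects of the lines were also compared directly. For H3K9Ac 0 of 9 members differed between MC38 and B16 in their KO effect, against 58 regions or 0.174%, and 35 regions passed with the replicate block. The differences ran from log2 -0.31 for Mx2 to 1.37 for Mx1, each with an edgeR adjusted p of 1.0.

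H3K9me3 was sparse on these genes. Ifit2, Isg15, Rsad2, Stat2 and Irf7 had no H3K9me3 island in any of 12 libraries, and so no island of this mark was there to be lost. The remaining 4, Mx1, Mx2, Ifit1 and Ifit3, had islands in 2 to 5 libraries each and entered the test over 25675 regions. By edgeR 0 of 4 passed in B16, against 80 regions or 0.312%. In MC38, where Ifit1 and Ifit3 had no island and could not pass, 0 of the other 2 passed, against 35 regions or 0.136%. At an unadjusted p under 0.05 there were 1985 of the 25675 regions in B16 and 1759 in MC38. Mx1 was the member among them in both lines. For the difference of the KO effects, which called 0.397% of regions, only Mx2 could be assessed (adjusted p = 0.583). The other 3 had at least 2 whole groups at 0. Mx2 itself had no island in B16 KO, so the size of its difference was not estimated. Between the lines' controls 0 of 3 passed, against 7.14%, and Ifit3 was at 0 in both.

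Mx1 had an H3K9me3 island in 5 of 6 control libraries and in 0 of 6 KO libraries. The B16 controls held 18.1, 0 and 19.8 RPM (186, 0 and 183 reads) and the MC38 controls 31.3, 18.7 and 49.3 RPM (186, 135 and 386 reads), and all KO libraries of both lines had none. Only B16 control 2 overlapped the KO libraries, so in MC38 the groups did not overlap, as for 2.33% of regions. Group means were 12.6 ± 11 RPM in B16 control and 33.1 ± 15.4 in MC38 control (SD, n = 3 each), against 0 in KO. The islands were 2.8 and 3.4 kb long in B16 controls 1 and 3, and 3.8, 2.0 and 7.8 kb in MC38 controls 1 to 3. In those libraries, in that order, 25% of all islands lay below 60.5, 51.4, 42.6, 43.8 and 48.9 reads per kb. A 0 in KO is an absent call and does not show that the mark was absent. The share of all regions with this pattern over both lines was not counted.

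The call on Mx1 depended on the test. The edgeR p was 0.0114 in B16 (adjusted p = 0.51) and 0.00799 in MC38 (adjusted p = 0.567). For the mean of both KO effects it was 0.00167 (adjusted p = 0.284), in a test that called 107 regions or 0.417%. DESeq2 called it, with adjusted p = 0.00867 in B16 and 0.00154 in MC38. Of the 25675 regions DESeq2 called 2126 in B16 and 1840 in MC38, many more than edgeR. Over the whole genome of B16, H3K9me3 islands covered 284.9 to 325.5 Mb in control and 367.0 to 430.9 Mb in KO. In MC38 the covered length was 344.1 to 451.7 Mb in control, and 563.4, 442.1 and 215.4 Mb in KO. Its part in the Mx1 result was not tested.

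These islands lay inside the gene, from 5.6 to 14.2 kb from its end at the lower coordinate, and all 5 shared the stretch from 10.8 to 11.6 kb. They had 0 bp in common with H3K9Ac islands of the same line, genotype and number. No H3K9Ac island of any library, control or KO, covered the shared stretch.

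Ifit1 had H3K9me3 islands in B16 but not in MC38, with more reads in KO than in control. The B16 controls held 0, 20.2 and 24 RPM (0, 156 and 222 reads) of H3K9me3 and the KO libraries 40.0, 52.4 and 48.8 RPM (429, 461 and 539 reads), while all 6 MC38 libraries had no island. KO and control did not overlap, as for 15.3% of regions in B16, and the means were 47.1 ± 6.40 against 14.7 ± 12.9 RPM (SD, n = 3 each). In B16 the KO libraries also had more H3K9me3 covered length over the genome than the controls, as given above, and its part in the Ifit1 values was not tested. Ifit1 did not pass (log2 1.67, interval -3.07 to 6.42, edgeR adjusted p = 1.0), and no estimate of the difference between the lines' KO effects was possible with MC38 at 0. Between the lines' controls Ifit1 had an edgeR adjusted p of 0.0998, which was 0.0198 without B16 control replicate 1 and 0.00189 by DESeq2. In that comparison DESeq2 called 7041 of the 25675 regions. Islands covered 7.8 to 10.1 kb of the 13.1 kb region in KO and 0 to 3.8 kb in control. They reached the start site in KO 1 and 2, and H3K9me3 and H3K9Ac islands shared 4.2, 1.3 and 1.2 kb in the KO libraries and 0 kb in the controls.

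That stretch of chromosome 19 is shared with neighbours. The Ifit1 region lies wholly inside the annotated span of Ifit1bl1, and 1.9 kb of it is also Ifit1bl2. Over its own longer region Ifit1bl1 gave 203.0 ± 102.0 RPM of H3K9me3 in B16 KO and 104.0 ± 51.7 in control, which overlapped (edgeR adjusted p = 0.962). Ifit3, next to it, had islands only in B16 KO 2 and 3, with 15.2 and 20.6 RPM (134 and 227 reads) and an adjusted p of 0.624. Both islands began near the end of Ifit3 and ran out of its region towards Ifit1bl1, so Ifit1 and Ifit3 are not independent examples.

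Mx2 had scattered islands. A 3.2 kb island inside its region in B16 control 2 held 117 reads. Edges of islands below the gene gave 8 reads in B16 control 3, 6 in MC38 control 1 and 71 in MC38 KO 3, with no order by genotype (adjusted p = 0.624 in B16 and 1.0 in MC38).

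**Figure D4:**
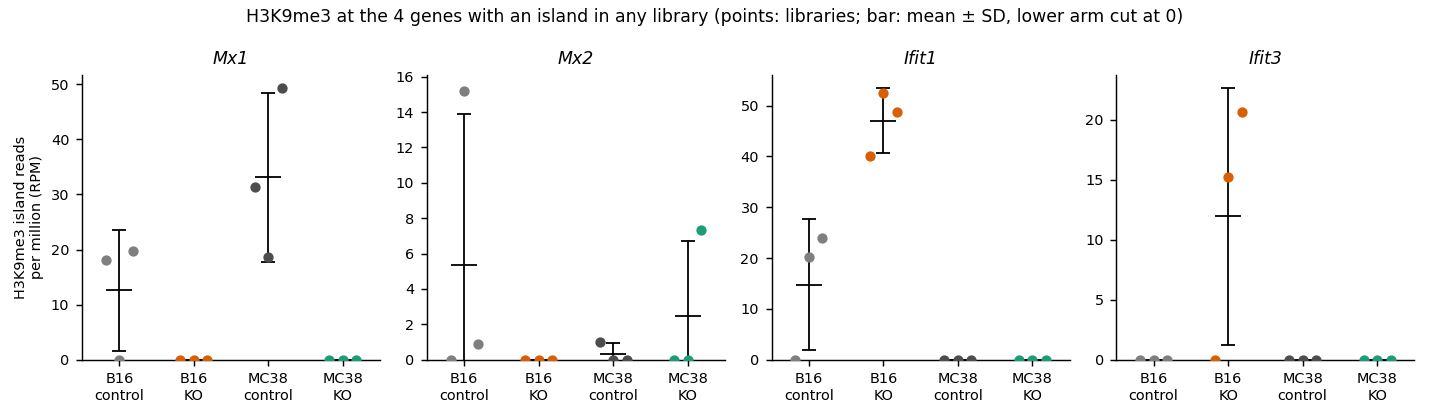
H3K9me3 island reads in RPM (vertical axes, from 0) in each library for the 4 genes with any island, with the mean and SD of each group. Mx1 is at 0 in all 6 KO libraries, and Ifit1 is highest in the 3 B16 KO libraries and at 0 in MC38.

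**Figure D5:**
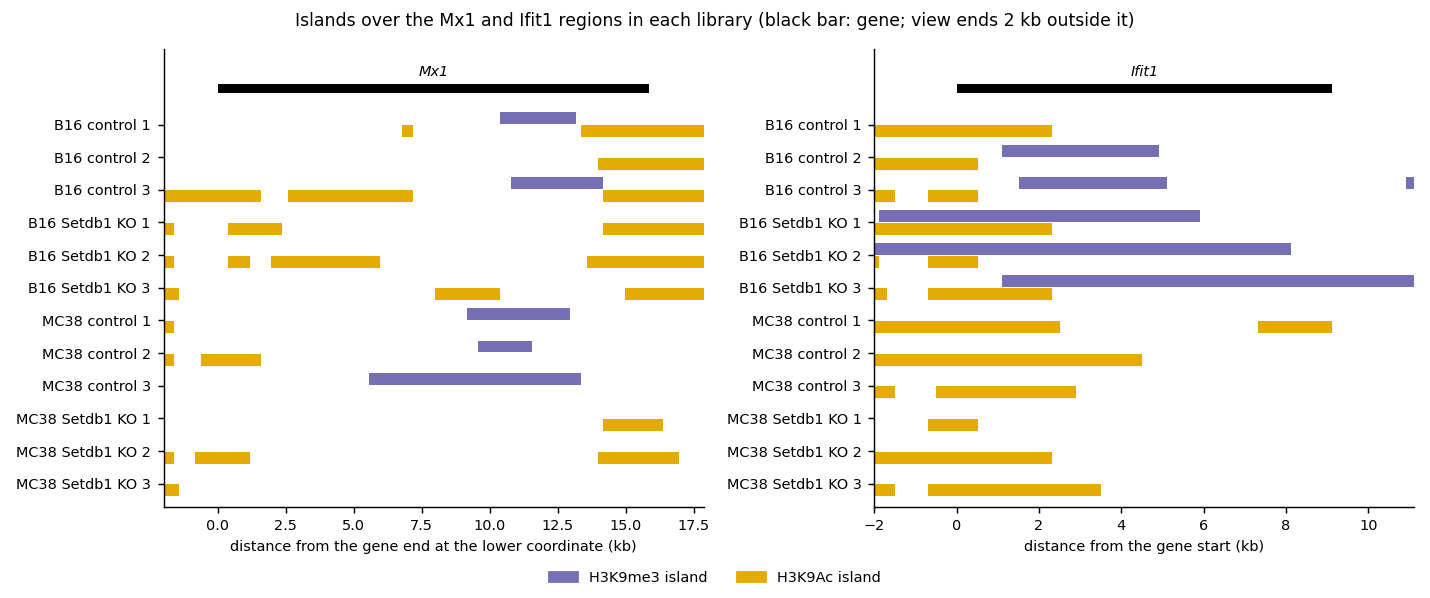
H3K9me3 (purple) and H3K9Ac (yellow) islands along Mx1 and Ifit1 in each library (rows), by distance in kb. The purple islands of Mx1 appear in 5 control libraries and no KO library, and those of Ifit1 are longer in B16 KO than in B16 control.

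The rest of the interferon pathway gave the same count of calls. Of 37 other pathway genes, 35 could be tested for H3K9Ac and 0 passed in B16 or in MC38, beside 0.0839% and 0.126% of all regions. With so few calls over all regions, 0 of 35 does not set these genes apart. Those with reads in all 6 libraries had a median log2 change of -0.11 in B16 (30 genes, 9 above 0 and 21 below) and 0.01 in MC38 (27 genes, 14 above and 13 below), beside -0.02 and 0.0 over all such regions. They comprised 6 interferons, 6 receptors and kinases, 4 signalling factors, 3 brakes and 18 other induced genes.

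The pathway genes with the smallest p-values were named by rule. In B16, Tyk2, the receptor-bound kinase, held 69.4 ± 7.30 RPM of H3K9Ac in KO against 57.5 ± 4.00 in control (log2 0.27), and Rtp4, an induced effector, 52.0 ± 2.99 against 62.9 ± 3.5 (log2 -0.28). Ifnb1, the first interferon made after infection, held 1.47 ± 2.55 RPM in control, with reads in only 1 of 3 libraries, and had no island in KO. In MC38 the 3 were Herc6, an enzyme of the Isg15 pathway, at 23 ± 6.49 in KO against 35.0 ± 4.66 in control (log2 -0.60), the receptor chain gene Ifngr1 at 20.9 ± 4.6 against 25.7 ± 2.99, and the GTPase gene Ifi47 at 28.1 ± 12 against 19.7 ± 7.43. All 6 had an edgeR adjusted p of 1.0 (n = 3 per group).

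For H3K9me3, 14 of the 37 could be tested and 0 passed in either line, beside 0.312% of all regions in B16 and 0.136% in MC38. Jak1, the partner kinase of Tyk2, held 7.32 ± 5.02 RPM in B16 control and no island in KO (edgeR adjusted p = 0.624, n = 3 per group). The induced nucleotide kinase gene Cmpk2 held 6.79 ± 11.8 and the interferon gene Ifne 5.76 ± 9.97 in B16 control. Each of these 2 means rested on 1 of 3 control libraries, where Jak1 had reads in 3 of 3. Neither gene had an island in KO. In MC38 the genes were Ifna4 (8.03 ± 13.9 RPM in KO, 0.0923 ± 0.16 in control), Rtp4 (6.31 ± 10.9 against 17.1 ± 16.8) and Ddx60 (21.5 ± 4.96 against 28.9 ± 15.5). Ifna4 had reads in 1 of 3 libraries of each group, and Rtp4 in 1 of 3 in KO and 2 of 3 in control. Over both lines the edgeR adjusted p-values of these genes ran from 0.624 to 1.0.

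As a description, the correlation of a gene's log2 H3K9Ac with the mean of the other 8 over the 12 libraries ran from -0.81 for Stat2 to 0.68 for Mx2, which includes the difference between the lines. With each line centred on its own mean it ran from -0.54 for Stat2 to 0.50 for Mx2. The protein-coding regions whose profile was most like the mean of all 9 were 4930505A04Rik (Pearson r = 0.92), Inppl1 (0.89), Gm14322 (0.89), Fam136a (0.89) and Mif (0.87), over 12 libraries that share their lines and depths.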

How the data were processed

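The submitters' processing notes name cutadapt, Bowtie2 2.1.0, SAMtools 0.1.8, SICER 1.1 for the islands, deepTools 3.1.1 and the build mm10. The deposited values are read counts per island, with no scaling between libraries. The background of the island calls was not given in the sources used here, and the 4 input samples were not analysed here. Per the labels, H3K9me3 was profiled from 4 times as many cells as H3K9Ac.

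Island reads were apportioned by overlap to RefSeq GRCm38.p6 gene regions (49550) and rounded. Each mark was fitted over 12 libraries with edgeR 4.0.16 (TMM scaling, quasi-likelihood test), for regions with a mean of at least 10 reads, and adjusted over all regions. RPM values use the same TMM scaling. The script was tested on simulated counts with known changes in well-covered regions. That test did not model libraries without a called island, so it does not cover genes with absent islands. DESeq2 1.42.0, other scalings, filters, islands, windows and left-out libraries were alternatives.

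The members and gene lists were chosen with earlier results of these data known. All 9 members were named, and of the pathway lists the 3 genes with the smallest p per mark and line. Regions most like the members were ranked by Pearson correlation of log2(RPM + 0.5).

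Same-numbered H3K9Ac libraries deviated together (correlations over 20434 regions of 0.43, 0.62 and 0.61 in B16 and 0.32, 0.60 and 0.46 in MC38). Numbers were therefore taken as pairs for H3K9Ac when counting pairs with KO higher or lower. The main fit, which gave the p-values and intervals, was unpaired. Only the replicate-block alternative held a term for the number. For H3K9me3 numbers were not taken as pairs.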

Additional observations from a re-analysis of the deposited data

How the results depend on the processing

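No member was called in a KO comparison of H3K9Ac, by any of the scalings, filters, tests, islands, windows and left-out libraries tried, and in the sum over all comparisons 181 of 206 alternative settings called 0 members. DESeq2 called 1 (Mx1) for H3K9me3 in B16, in MC38 and in the mean of both KO effects, and 1 (Ifit1) between the lines' controls. Between the controls for H3K9Ac, where Stat2 was called, DESeq2 called 3 members, stricter islands 2 and the 5′ window 3, and left-out libraries gave 0 to 2 (0 to 1 for H3K9me3). Counts over all regions moved far more. DESeq2 called 1024 regions for H3K9Ac in B16, 874 in MC38, 1392 for the difference, 10767 between controls and 1472 for the mean effect, and 2126, 1840, 2863, 7041 and 3124 for H3K9me3. With the compared groups alone, edgeR called 0 in each KO comparison of either mark (1158 and 440 regions at an unadjusted p under 0.05 for H3K9Ac in B16 and MC38, 1950 and 200 for H3K9me3) and 3655 between controls for H3K9me3. With the replicate block it called 17, 25 and 35 for H3K9Ac in B16, MC38 and the difference, and 6, 0, 7, 402 (controls) and 1 (mean effect) for H3K9me3 (546 at an unadjusted p under 0.05 in MC38), where same-numbered libraries had correlations from -0.41 to 0.47 and the number was not taken as a pair. The block changed no other call of a member. The 5′ window gave 19 (MC38) and 3592 (controls) for H3K9Ac, and 37, 9, 41, 1023 and 39 for H3K9me3. Stricter islands gave 20 for H3K9me3 in MC38. Left-out libraries gave 17 to 67 (B16), 29 to 119 (MC38), 48 to 125 (difference) and 45 to 135 (mean) for H3K9Ac, and 52 to 165, 10 to 154, 66 to 212, 1187 to 2497 (controls) and 91 to 239 (mean) for H3K9me3. Signs of uncalled H3K9Ac log2 changes turned in B16 with stricter islands for Mx1 (0.04) and Rsad2 (0.04), and in the 5′ window for Mx1 (0.04), Ifit3 (0.01) and Rsad2 (0.06). Over left-out libraries they ran in B16 from -0.25 to 0.25 (Mx1), -0.49 to 0.09 (Mx2) and -0.32 to 0.06 (Isg15). In MC38 they ran from -0.77 to 0.70 (Ifit3), -0.12 to 0.07 (Isg15), -1.07 to 0.21 (Rsad2), -0.03 to 0.30 (Stat2) and -0.13 to 0.16 (Irf7). For Mx2 H3K9me3 in MC38 the adjusted p ran from 0.863 to 1.0, and without MC38 KO replicate 3, where the sign turned, it was 1.0. Scaling by total island reads moved the median of all regions for H3K9me3 from -0.04 to -0.21 in B16 and from 0.13 to -0.36 between controls. The cause of these shifts was not tested. Absent islands limit Mx1, Ifit3 and Rsad2, and reads outside islands were not analysed here.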
